A study of Homo sapiens with 27 samples.

Results

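Immediate early genes are transcribed within minutes to hours of a stimulus, from promoters whose activators already sit in the cell. FOS, FOSB and FOSL1 are FOS family proteins and JUN and JUNB are JUN family proteins, and a FOS and a JUN protein pair into AP-1, a basic leucine zipper factor. EGR1 and EGR3 are zinc finger factors that bind GC-rich sites, ATF3 is a stress-induced basic leucine zipper factor that binds cyclic AMP response elements (CREs), and IER2 is an induced nuclear protein. In breast cancer cells of this kind FOSL1 is known as an abundant AP-1 subunit linked with invasion.

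Members were the probe sets whose platform annotation named only one of 10 genes, FOS, FOSB, FOSL1, JUN, JUNB, EGR1, EGR2, EGR3, ATF3 and IER2. The 10 genes were chosen with earlier results of these data known, while matching them to the annotation used no measured value. Of 19064 probe sets that named 1 gene and covered 11963 genes, the matching found 13, for 9 of the 10 genes. JUN had 4 probe sets and EGR1 had 2, which share a target and are not independent. FOS, FOSB, FOSL1, JUNB, EGR3, ATF3 and IER2 had 1 each, and EGR2 was not analysed here. All 13 entered every test, since no filter on dim probe sets was used.

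The arrays measured total RNA of MDA-MB-231, an established human breast cancer line grown in DMEM with serum. Cells received 5SGlcNAc at 50 µM, which inhibits OGT, the enzyme that adds the sugar O-GlcNAc to intracellular proteins, Thiamet-G at 25 µM, which inhibits OGA, the enzyme that removes it, or DMSO as the vehicle. Each treatment had 1 array at 0, 2, 4, 6, 8 and 24 h and 3 arrays at 48 h, 27 arrays in all. The labels do not state that the 48 h arrays of a group came from separate cultures, so p-values cover the spread between these arrays alone, which can be technical. Levels are log2 values, on which a step of 1 is a doubling of signal, and the 48 h arrays form a set of their own whose levels were never compared with other times.

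Vimentin (VIM) ran from 14.76 to 15.02 and AXL from 13.4 to 13.8 over all arrays, both typical of this mesenchymal-like line, while SPARC ran from 4.23 to 5.31. Markers of luminal epithelium were mixed, with the keratins KRT18 (12.97 to 13.68), KRT8 (11.86 to 12.57) and KRT19 (10.37 to 11.83) high and CDH1 (4.98 to 6.45), FOXA1 (4.89 to 5.77) and PGR (3.74 to 4.31) low. The 8 haematopoietic markers measured lay between PTPRC (3.62 to 4.44) and HBB (7.20 to 7.88). RNA integrity was read from ACTB, as its 3' signal minus its 5' signal. At 4 h that difference was 1.24 with Thiamet-G and 1.64 with DMSO. It was 0.42 to 0.95 in the other 16 arrays of 0 to 24 h, and 0.15 to 0.39 at 48 h. The same measure of GAPDH was 0.11 to 0.27 over all arrays. An array does not tell fewer cells carrying a transcript apart from less transcript per cell.

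Promoter sequence of 8 of the 10 genes was available from RefSeq on build GRCh38.p14. The windows below hold the 250 bases before the annotated start and are shown for the 4 genes that rose most at 2 or 4 h and for JUN, which fell. Capitals mark motif matches found on either strand.
EGR1, chr5:138465229-138465478, + strand: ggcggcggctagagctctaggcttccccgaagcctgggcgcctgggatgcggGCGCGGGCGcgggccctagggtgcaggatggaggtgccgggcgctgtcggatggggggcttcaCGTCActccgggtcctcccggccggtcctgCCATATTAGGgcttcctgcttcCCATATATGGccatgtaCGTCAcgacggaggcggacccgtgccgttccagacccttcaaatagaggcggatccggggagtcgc
FOS, chr14:75278578-75278827, + strand: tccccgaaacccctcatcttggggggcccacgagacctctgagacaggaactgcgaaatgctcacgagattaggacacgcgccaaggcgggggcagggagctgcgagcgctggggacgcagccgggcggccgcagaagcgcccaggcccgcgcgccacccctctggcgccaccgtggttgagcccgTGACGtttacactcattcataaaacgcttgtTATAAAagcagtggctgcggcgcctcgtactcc
FOSB, chr19:45467746-45467995, + strand: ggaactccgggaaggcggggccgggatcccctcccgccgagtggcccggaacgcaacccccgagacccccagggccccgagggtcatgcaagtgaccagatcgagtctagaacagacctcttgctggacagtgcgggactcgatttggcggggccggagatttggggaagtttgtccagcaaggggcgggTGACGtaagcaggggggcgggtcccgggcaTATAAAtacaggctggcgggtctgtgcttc
ATF3, chr1:212565157-212565406, + strand: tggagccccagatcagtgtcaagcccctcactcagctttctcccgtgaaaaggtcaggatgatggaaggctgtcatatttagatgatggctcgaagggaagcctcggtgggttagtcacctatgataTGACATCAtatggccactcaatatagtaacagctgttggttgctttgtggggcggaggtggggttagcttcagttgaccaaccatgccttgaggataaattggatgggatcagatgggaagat
JUN, chr1:58784048-58784297, - strand: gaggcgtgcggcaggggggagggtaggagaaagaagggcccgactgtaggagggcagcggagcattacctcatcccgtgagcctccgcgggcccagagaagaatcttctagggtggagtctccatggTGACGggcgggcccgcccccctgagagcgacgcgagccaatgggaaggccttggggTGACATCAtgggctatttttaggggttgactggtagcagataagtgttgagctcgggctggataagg
The EGR1 window held a pair of CArG boxes, the element bound by serum response factor (SRF), CCATATTAGG at 105 to 96 and CCATATATGG at 83 to 74 bases before the start. CArG boxes were in 1.16% of 35116 promoter windows of this length. EGR1 also held GCGCGGGCG at 198 to 190 bases, a match to the EGR-type site GCGNGGGCG that 8.41% of windows held. Matches to the CRE core TGACG, which 21.2% of windows held, lay 64 to 60 bases before the FOS start and 60 to 56 before the FOSB start. The same core lay 123 to 119 bases before the JUN start, and EGR1 held it at 135 to 131 and 66 to 62 bases on the opposite strand. FOS and FOSB each held TATAAA (10.7% of windows), at 33 to 28 and 30 to 25 bases. The variant CRE TGACATCA, in 2.37% of windows, lay 67 to 60 bases before the JUN start and 123 to 116 before this ATF3 start, 1 of 2 starts in the table. None of the windows of the 8 genes matched the full CRE TGACGTCA (1.65% of windows) or the AP-1 site TGANTCA (6.57%). A match describes letters in a window and not binding.

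FOS, EGR1, ATF3 and FOSB were higher than at 0 h in all 3 treatment series at 2 and 4 h, DMSO included, and none of them was called against 0 h at 24 h. In each series 0 h was compared with the later times, with the 3 series standing in for replicates. FOS read 6.54, 9.11, 7.74, 7.75, 7.02 and 6.54 at 0, 2, 4, 6, 8 and 24 h with 5SGlcNAc. With Thiamet-G it read 6.51, 7.88, 7.19, 7.03, 7.09 and 6.87 at the same times, and with DMSO 6.48, 8.38, 8.34, 7.52, 7.21 and 7.19. The highest FOS array of each series was that of 2 h, and none of the 3 arrays of 2 h overlapped those of 0 h.

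**Figure D1:**
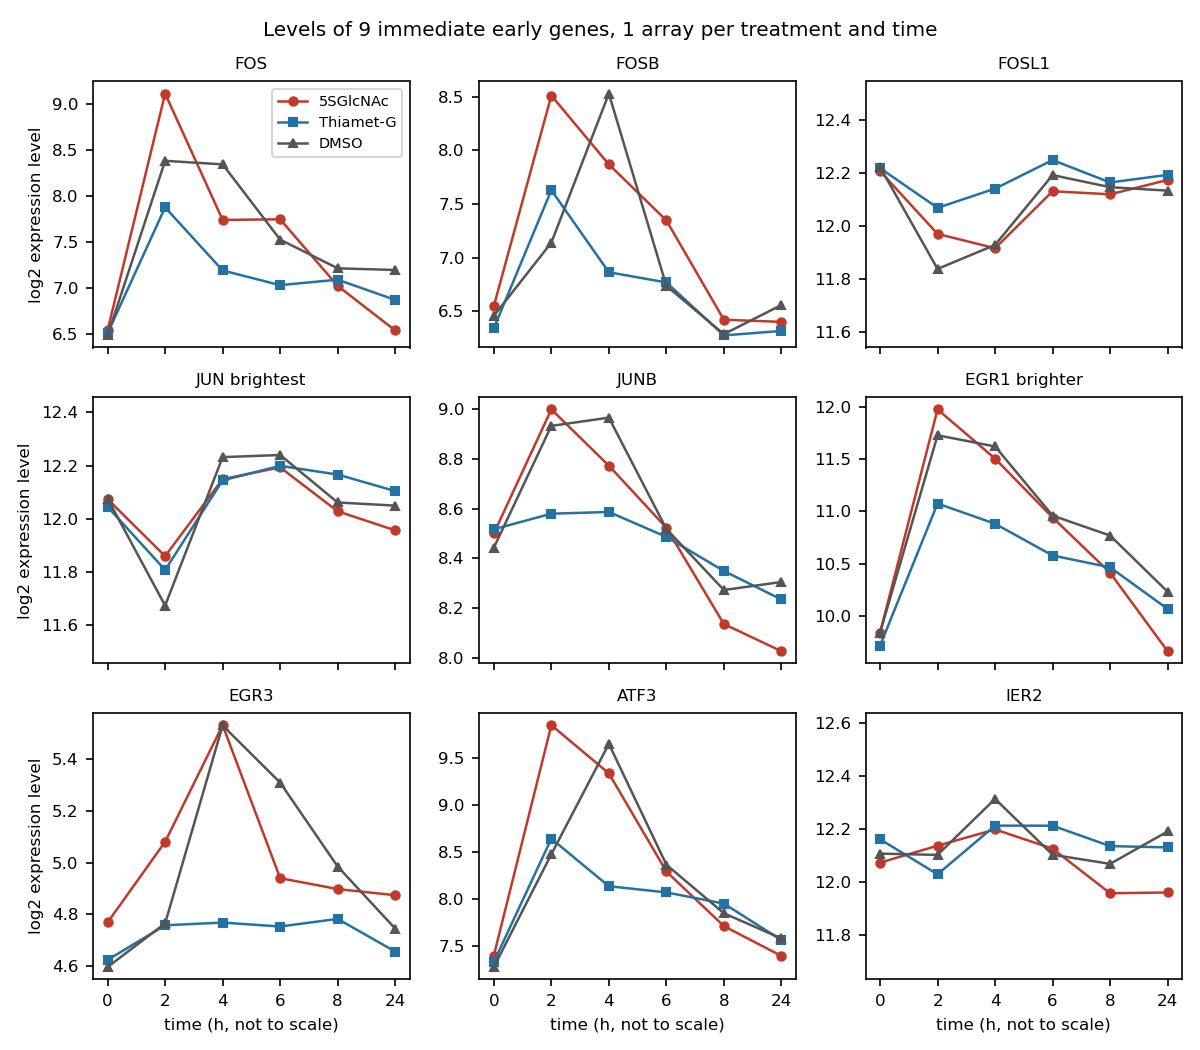
Log2 level (vertical axis) of the brightest probe set of each of 9 genes against time in h (horizontal axis), 1 array per point, for the 5SGlcNAc, Thiamet-G and DMSO series of 0 to 24 h. FOS and EGR1 are highest at 2 h in every series, FOSB and ATF3 are highest at 2 h with either inhibitor and at 4 h with DMSO, and JUN dips at 2 h.

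EGR1 and JUN have several probe sets each, named here by their mean level (brighter and dimmer for EGR1, brightest to dimmest for JUN), which only names them. The brighter EGR1 probe set read 9.84, 11.97, 11.50, 10.94, 10.41 and 9.66 from 0 to 24 h with 5SGlcNAc. It read 9.71, 11.07, 10.88, 10.58, 10.46 and 10.07 with Thiamet-G and 9.84, 11.73, 11.62, 10.96, 10.77 and 10.23 with DMSO. This probe set was highest at 2 h in each series and lower at every later time. The dimmer EGR1 probe set followed the brighter with a Pearson correlation of 0.98 over the 18 arrays, but its highest DMSO array was that of 4 h (9.113, against 9.101 at 2 h).

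ATF3 read 7.40, 9.84, 9.33, 8.29, 7.71 and 7.40 with 5SGlcNAc, 7.33, 8.64, 8.14, 8.07, 7.95 and 7.56 with Thiamet-G, and 7.28, 8.47, 9.65, 8.36, 7.85 and 7.58 with DMSO. FOSB read 6.55, 8.51, 7.87, 7.35, 6.42 and 6.40 with 5SGlcNAc, 6.34, 7.63, 6.87, 6.77, 6.28 and 6.32 with Thiamet-G, and 6.46, 7.14, 8.53, 6.74, 6.29 and 6.56 with DMSO. Both genes were highest at 2 h with either inhibitor and at 4 h with DMSO. The DMSO array of 4 h is also the one with the highest ACTB 3' minus 5' signal, and the part of that in these peaks was not tested.

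At 2 h against 0 h, 6 of the 13 probe sets passed the test (limma, adjusted p under 0.05 over all probe sets), 4 of them higher and 2 lower. Over all 19064 probe sets 0.210% were called higher and 0.252% lower. FOS rose by 1.95 ± 0.25 on the log2 scale (SE), 3.85-fold, with an adjusted p of 0.00135. EGR1 rose by 1.79 ± 0.17 (adjusted p = 0.000494) by the brighter probe set and by 1.42 ± 0.15 (adjusted p = 0.000519) by the dimmer. ATF3 rose by 1.65 ± 0.30, 3.14-fold, with an adjusted p of 0.0249. FOSB was higher at 2 h in 3 of 3 series, by 1.31 ± 0.30, but missed the threshold at an adjusted p of 0.0814, which it passed without the DMSO array of 4 h (0.0132).

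JUN was lower at 2 h than at 0 h in all 3 series. The second brightest JUN probe set read 10.09, 9.79, 10.20, 10.27, 10.14 and 10.20 from 0 to 24 h with 5SGlcNAc, 10.05, 9.69, 10.20, 10.19, 10.21 and 10.14 with Thiamet-G, and 10.15, 9.42, 10.29, 10.31, 10.11 and 10.24 with DMSO. The 2 h array was the lowest of each series. This probe set fell by 0.46 ± 0.08 (adjusted p = 0.0161), and the dimmest fell by 0.36 ± 0.07 (adjusted p = 0.0407). The other 2 JUN probe sets differed by -0.40 ± 0.09 (the third brightest, adjusted p = 0.0618) and -0.28 ± 0.06 (the brightest, adjusted p = 0.0743). For all 4, none of the 2 h arrays overlapped those of 0 h. Over the 13 probe sets, the 2 h arrays lay without overlap above those of 0 h for 6 and below for 5, beside 7.41% and 8.24% of all probe sets.

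FOSL1 had the same direction as JUN, with a smaller step. It read 12.21, 11.97, 11.92, 12.13, 12.12 and 12.17 with 5SGlcNAc, 12.22, 12.07, 12.14, 12.25, 12.16 and 12.19 with Thiamet-G, and 12.22, 11.84, 11.93, 12.19, 12.15 and 12.13 with DMSO. Its 2 h arrays lay below those of 0 h by 0.26 ± 0.06, with an adjusted p of 0.0952 that missed the threshold. JUNB read 8.50, 8.998, 8.77, 8.52, 8.14 and 8.03 with 5SGlcNAc, 8.52, 8.58, 8.59, 8.49, 8.35 and 8.24 with Thiamet-G, and 8.44, 8.93, 8.97, 8.52, 8.27 and 8.31 with DMSO. Its step at 2 h was 0.50 with 5SGlcNAc, 0.06 with Thiamet-G and 0.49 with DMSO, and the mean step of 0.35 ± 0.10 did not pass (adjusted p = 0.254). IER2 stayed between 11.96 and 12.31 in all 18 arrays, with a difference of -0.02 ± 0.07 at 2 h (95% interval -0.16 to 0.11). Across the 2 h contrast the median of the 13 probe sets was 0.20, against -0.003 over all probe sets.

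**Figure D2:**
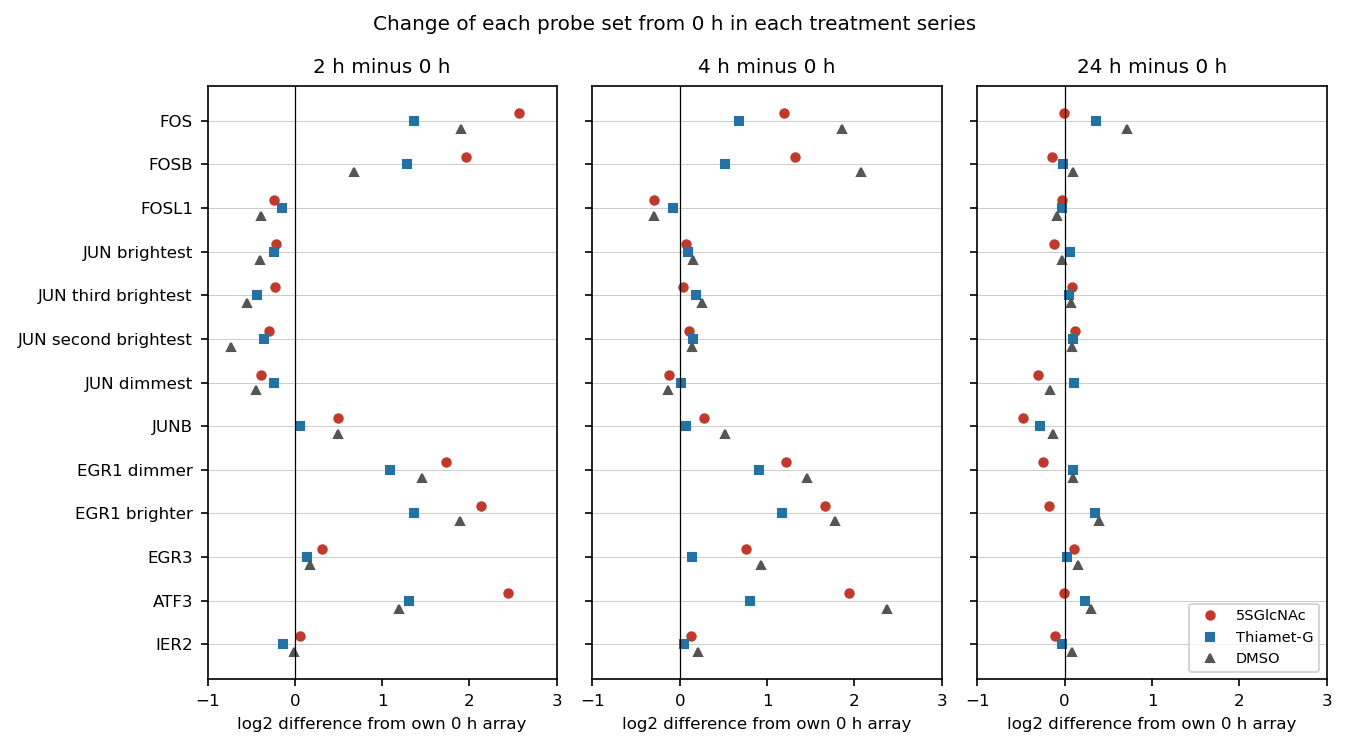
Change in log2 level from the 0 h array of the same series (horizontal axis) for each of the 13 probe sets at 2, 4 and 24 h, with 1 point each for the 5SGlcNAc, Thiamet-G and DMSO series. FOS, both EGR1 probe sets, ATF3 and FOSB lie right of 0 at 2 and 4 h in every series, and the 4 JUN probe sets lie left of 0 at 2 h.

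EGR3, a relative of EGR1, moved later and was dim. It read 4.77, 5.08, 5.53, 4.94, 4.90 and 4.87 with 5SGlcNAc, 4.62, 4.76, 4.77, 4.75, 4.78 and 4.66 with Thiamet-G, and 4.60, 4.77, 5.53, 5.31, 4.99 and 4.75 with DMSO. The 4 h array stood out with 5SGlcNAc and DMSO but not with Thiamet-G, where the whole range over time was 0.16.

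At 4 h against 0 h, 6 probe sets passed and all were higher, while 1.01% of all probe sets were called higher and 1.70% lower. They were ATF3 (1.70 ± 0.30, adjusted p = 0.00866), both EGR1 probe sets (1.54 ± 0.17 and 1.19 ± 0.15), FOSB (1.30 ± 0.30), FOS (1.25 ± 0.25) and EGR3 (0.61 ± 0.14). Without the DMSO array of 4 h, 2 of the 13 probe sets passed. The FOSB change was then 0.843. Leaving out the Thiamet-G array of 4 h as well, a choice made after seeing the data, also left 2. Those 2 were the EGR1 probe sets.

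Calls then thinned out. At 6 h the 2 EGR1 probe sets were called, at 1.03 ± 0.17 and 0.78 ± 0.15, with 1.80% of all probe sets called higher and 1.54% lower. FOS was 0.92 ± 0.25 above 0 h then, with an adjusted p of 0.0523. At 8 h only the brighter EGR1 probe set was called of the 13 (0.75 ± 0.17, adjusted p = 0.0239, background 2.77% higher and 1.87% lower). At 24 h none was, by limma, while 3.82% of all probe sets were called higher and 4.02% lower. Of the 13, 1 had an unadjusted p under 0.05 at 24 h, as had 4115 of all 19064. FOS at 24 h read 6.54 with 5SGlcNAc, its 0 h level, and stood 0.36 above 0 h with Thiamet-G and 0.71 with DMSO. JUNB was 0.30 ± 0.10 below its 0 h level at 24 h in the mean of the series, lower in 3 of 3, without passing (adjusted p = 0.102). These comparisons share the 0 h arrays. In fits without the DMSO series, with 12 arrays, none of the 13 passed at 2, 4, 6 or 8 h, and of all 19064 probe sets 5 passed at 6 h and none at 2, 4 or 8 h. At 8 h none of the 13 passed without any one series. ATF3 and the 2 JUN probe sets called at 2 h, and FOSB at 4 h, passed in 0 of 3 fits that left out a series. Over all alternatives the changes at 2 h were 1.63 to 2.23 for FOS and 1.25 to 1.88 for ATF3. At 4 h they were 1.42 to 1.72 for the brighter EGR1 probe set and 0.94 to 1.53 for FOS. They were wider at 4 h for ATF3 (1.36 to 2.15) and FOSB (0.84 to 1.70), and EGR3 ran from 0.45 to 0.85.

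FOS, FOSB, JUNB, EGR1 and ATF3 varied together over the 18 arrays of 0 to 24 h, which share times and processing. FOS correlated with the brighter EGR1 probe set at 0.95 and with ATF3 at 0.91, and FOSB with ATF3 at 0.94. FOS correlated with the second brightest JUN probe set at -0.46 and with FOSL1 at -0.82. Among 5976 other genes above the median level, the one most like ATF3 was BCL6, a transcriptional repressor, at 0.96, followed by ID2, a helix-loop-helix inhibitor, at 0.93. BCL6 was also nearest to FOSB (0.95), and MYLIP, a ubiquitin ligase, was nearest to FOS (0.90) and second for FOSB (0.89) and JUNB (0.84). ZFP36, an RNA-binding protein that destabilises cytokine messages, was second for FOS at 0.86. HERPUD1, an endoplasmic reticulum stress gene, was nearest to EGR1 (0.92) and JUNB (0.85), and ID2 was second for EGR1 (0.90). EGR3 was most like CDKN1A, a cell cycle inhibitor (0.83), and ZC3HAV1, an antiviral zinc finger protein (0.82). FOSL1 went with SOX9 and CDC42EP3 (0.88 each), JUN with SPRY4 (0.88) and TRIM38 (0.87), and IER2 with SF3A1 (0.90) and NUP98 (0.82). BCL6 read 9.89, 10.28, 10.25, 9.99, 9.86 and 9.82 with 5SGlcNAc from 0 to 24 h, so its swing was far smaller on the log2 scale than that of ATF3.

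Between 2 and 24 h each difference at one time is that of single arrays with no test. 5SGlcNAc exceeded Thiamet-G at 2 and 4 h by 1.205 and 1.198 for ATF3 and by 0.881 and 1.005 for FOSB. For FOS it did so by 1.24 at 2 h, 0.55 at 4 h and 0.72 at 6 h. At 2 h, 5SGlcNAc exceeded DMSO by 1.37 for ATF3, by 1.37 for FOSB and by 0.73 for FOS. Thiamet-G differed from DMSO at 2 h by 0.16 for ATF3, 0.49 for FOSB, -0.51 for FOS and -0.65 for the brighter EGR1 probe set. At 4 h Thiamet-G lay below DMSO by 1.66 for FOSB, 1.51 for ATF3, 1.15 for FOS, 0.76 for EGR3 and 0.74 for EGR1. The corresponding differences of 5SGlcNAc at 4 h were -0.66 for FOSB, -0.31 for ATF3, -0.60 for FOS, 0.00 for EGR3 and -0.12 for EGR1. Both arrays of the comparison of Thiamet-G with DMSO at 4 h are the ones with high ACTB 3' minus 5' signal. The 4 h differences between the inhibitors use that Thiamet-G array, and those of 5SGlcNAc from DMSO use that DMSO array. The part of that signal in the 4 h differences was not tested.

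Averaged over 2, 4, 6, 8 and 24 h, with time as a block, no probe set passed for Thiamet-G against DMSO by limma, of the 13 or of all 19064 (background 0%). Of the 13, 5 had an unadjusted p under 0.05, as had 1598 of all. FOS was lower with Thiamet-G at 5 of 5 times, by a mean of 0.52 ± 0.19 (adjusted p = 0.501). Both EGR1 probe sets were lower at 5 of 5 times as well, with differences of -0.45 ± 0.14 and -0.34 ± 0.12. EGR3 was also below DMSO at 5 of 5 times, by a mean difference of -0.32 ± 0.11. Its single differences were uneven, from -0.007 at 2 h to -0.76 at 4 h. FOSL1 was the single one of the 13 above DMSO at 5 of 5 times, at 0.11 ± 0.05. Over all probe sets 4.06% were lower at all 5 times and 4.63% higher, beside 4 and 1 of the 13. ATF3 differed by -0.31 ± 0.25, with an interval of -0.85 to 0.22.

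For 5SGlcNAc against DMSO over the same times no probe set passed either, of the 13 or of all (background 0%), and 870 of all had an unadjusted p under 0.05, none of them among the 13. The differences changed sign between times for each of the 13, while 2.56% of all probe sets were higher and 2.98% lower at all 5 times. ATF3 differed by 0.13 ± 0.25 (95% interval -0.40 to 0.67), FOS by -0.10 ± 0.19 (-0.52 to 0.32) and the brighter EGR1 probe set by -0.16 ± 0.14 (-0.46 to 0.13). For 5SGlcNAc against Thiamet-G, 0.0157% of all probe sets were called higher and 0.0787% lower, and none of the 13. Of the 13, 5 had an unadjusted p under 0.05, as had 2423 of all 19064. FOSB (0.54 ± 0.25) and EGR3 (0.32 ± 0.11) were higher with 5SGlcNAc than with Thiamet-G at 5 of 5 times, with adjusted p of 0.384 and 0.228. FOSL1 was lower at 5 of 5 (-0.10 ± 0.05). Over all probe sets 5.76% were higher and 7.99% lower at all 5 times.

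After 48 h ATF3 and the brighter EGR1 probe set were higher with either inhibitor than with DMSO, and JUN was lower with 5SGlcNAc. ATF3 read 8.83, 8.82 and 8.87 with 5SGlcNAc, 9.11, 9.07 and 9.08 with Thiamet-G, and 8.40, 8.60 and 8.65 with DMSO. None of these 3 groups overlapped another. The brighter EGR1 probe set read 11.27, 11.11 and 11.21 with 5SGlcNAc, 11.33, 11.33 and 11.39 with Thiamet-G, and 10.97, 11.03 and 10.96 with DMSO. Again the groups did not overlap.

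**Figure D3:**
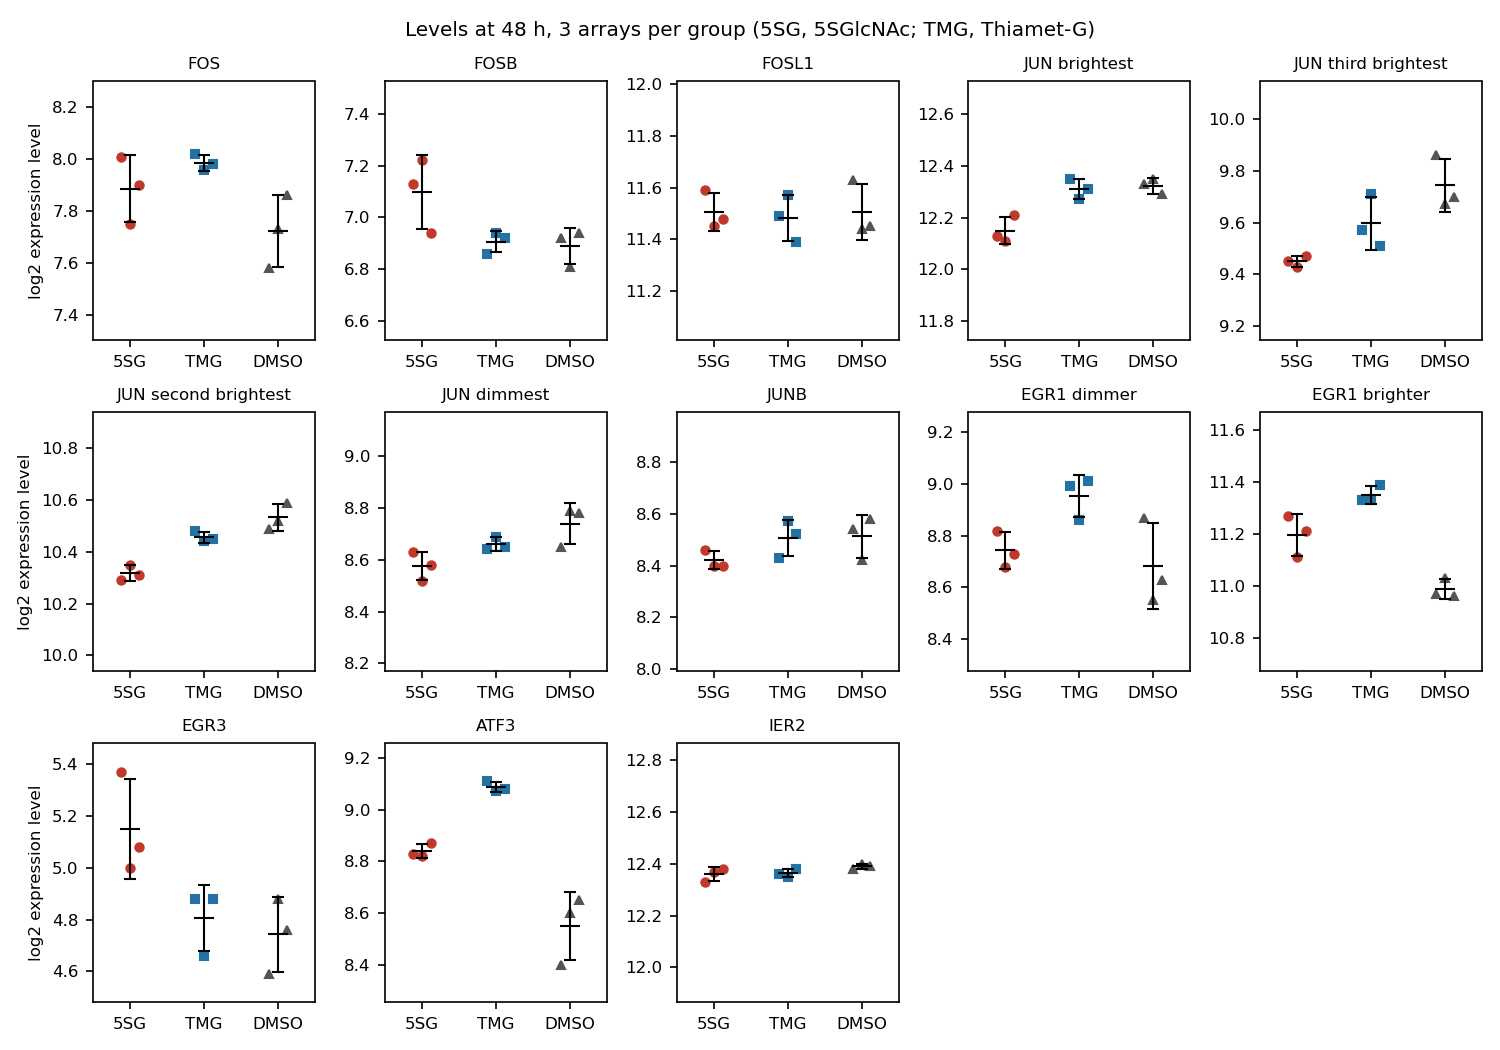
Log2 level at 48 h (vertical axis) of the 13 probe sets, with 3 arrays per group as points and the mean with its SD beside them, for 5SGlcNAc (5SG), Thiamet-G (TMG) and DMSO. The ATF3 and the brighter EGR1 probe set groups are ordered Thiamet-G, 5SGlcNAc, DMSO from high to low without overlap, and the 5SGlcNAc arrays are lowest for all 4 JUN probe sets.

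ATF3 rose with Thiamet-G by 0.54 ± 0.06 over DMSO, 1.45-fold, with an adjusted p of 0.00715 (limma, 3 arrays a group). The brighter EGR1 probe set rose by 0.36 ± 0.05, 1.29-fold, with an adjusted p of 0.0144. These were the only 2 of the 13 probe sets called, and no member was called lower, against 0.289% of all probe sets called higher and 1.81% lower. The dimmer EGR1 probe set read 8.99, 8.86 and 9.01 with Thiamet-G and 8.87, 8.55 and 8.63 with DMSO, an overlap by 1 array, and its difference of 0.27 ± 0.08 did not pass (adjusted p = 0.145). FOS read 8.02, 7.96 and 7.98 with Thiamet-G and 7.58, 7.73 and 7.86 with DMSO. Those FOS groups did not overlap, but the difference of 0.26 ± 0.08 missed the threshold (adjusted p = 0.147). In this contrast 3 of the 13 did not overlap with Thiamet-G higher and 1 with it lower, beside 5.88% and 13.6% of all probe sets. With the 6 arrays of these groups alone none of the 13 passed (ATF3 adjusted p = 0.0505), and 25 of all probe sets did, against 401 with 9 arrays. Without any one DMSO array EGR1 did not, with adjusted p of 0.0512 to 0.0668, nor without Thiamet-G replicate 1 or 3 (0.0567 and 0.0536). Its difference in those fits was 0.343 to 0.385, and without a DMSO array 43 to 45 of all probe sets were called.

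With 5SGlcNAc ATF3 rose by 0.29 ± 0.06, 1.22-fold (adjusted p = 0.0240), and the brighter EGR1 probe set by 0.21 ± 0.05, 1.16-fold (adjusted p = 0.0390). The dimmer EGR1 probe set read 8.82, 8.68 and 8.73 with 5SGlcNAc, which overlapped DMSO, and its difference of 0.06 ± 0.08 did not pass (adjusted p = 0.710). JUN fell by 0.29 ± 0.07 by the third brightest of its probe sets (adjusted p = 0.0277) and by 0.22 ± 0.04 by the second brightest (adjusted p = 0.0177). So 4 of the 13 were called, 2 in each direction, with 1.95% of all probe sets called higher and 5.57% lower. The second brightest JUN probe set read 10.29, 10.35 and 10.31 with 5SGlcNAc, 10.48, 10.44 and 10.45 with Thiamet-G, and 10.49, 10.52 and 10.59 with DMSO. The third brightest read 9.45, 9.43 and 9.47 with 5SGlcNAc, 9.57, 9.71 and 9.51 with Thiamet-G, and 9.86, 9.67 and 9.70 with DMSO. For all 4 JUN probe sets the 5SGlcNAc arrays lay below every DMSO array. The 2 that were not called differed by -0.17 ± 0.05 (the brightest, adjusted p = 0.0529) and -0.16 ± 0.05 (the dimmest, adjusted p = 0.0992). Groups did not overlap for 3 of the 13 with 5SGlcNAc higher and 4 lower, beside 11.6% and 16.9% of all probe sets.

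Without 5SGlcNAc replicate 1 none of the 13 passed. Without 5SGlcNAc replicate 3 none of these 4 did, while FOSB passed (0.285, adjusted p = 0.0328). Leaving out any other 5SGlcNAc or DMSO array left 1 or 2 of the 13. The calls over all probe sets, against 1433 with all arrays, fell to 691 and 1094 without 5SGlcNAc replicates 1 and 3. Without any other 5SGlcNAc or DMSO array they fell to between 761 and 881. The brighter EGR1 probe set was also lost without Thiamet-G replicate 1 or 3. Over the 9 fits that each left out 1 array, the differences stayed at 0.215 to 0.34 for ATF3, 0.173 to 0.253 for EGR1, and -0.33 to -0.235 and -0.238 to -0.188 for the 2 JUN probe sets. The comparisons of both inhibitors share the DMSO arrays. Quantile normalization and median centring moved the share of higher among all called probe sets from 26.0% to 38.1% and 39.7% for 5SGlcNAc against DMSO. For Thiamet-G against DMSO they moved it from 13.7% to 26.9% and 27.5%. All called members kept their direction. With quantile normalization the third brightest JUN probe set missed the threshold for 5SGlcNAc against DMSO (limma, adjusted p = 0.0688) and the brightest passed (0.0464).

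Set against Thiamet-G directly, ATF3 differed with 5SGlcNAc by -0.25 ± 0.06 (adjusted p = 0.0381), the only one of the 13 to pass, while 4.72% of all probe sets were called higher and 5.26% lower. EGR1 differed by -0.15 ± 0.05 (adjusted p = 0.0982) by the brighter probe set and by -0.21 ± 0.08 (adjusted p = 0.154) by the dimmer. The JUN probe sets differed by -0.16 to -0.08, none passing, and the brightest came closest (adjusted p = 0.0593). In all, 7 of the 13 lay lower without overlap and 1 higher, beside 12.1% and 14.6% of all probe sets. The ATF3 call was lost without any one 5SGlcNAc or Thiamet-G array (adjusted p of 0.0559 to 0.113) and without DMSO replicate 2 (0.0540), with a difference of -0.262 to -0.235 over the fits that left out 1 array.

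EGR3 was the one of the 13 whose 5SGlcNAc arrays lay above every array of both other groups. It read 5.37, 5.00 and 5.08 with 5SGlcNAc, 4.88, 4.66 and 4.88 with Thiamet-G, and 4.59, 4.88 and 4.76 with DMSO. Its differences of 0.41 ± 0.11 from DMSO (adjusted p = 0.0553) and 0.34 ± 0.11 from Thiamet-G (adjusted p = 0.0825) both missed the threshold. FOSB read 7.13, 7.22 and 6.94 with 5SGlcNAc, 6.86, 6.94 and 6.92 with Thiamet-G, and 6.92, 6.81 and 6.94 with DMSO, and its 5SGlcNAc difference from DMSO was 0.21 ± 0.07 (adjusted p = 0.123). FOS read 8.01, 7.75 and 7.90 with 5SGlcNAc, which overlapped DMSO.

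JUNB, FOSL1 and IER2 showed no detectable difference between groups at 48 h. JUNB averaged 8.42 ± 0.03 with 5SGlcNAc, 8.51 ± 0.07 with Thiamet-G and 8.51 ± 0.08 with DMSO (SD, n = 3 each). FOSL1 averaged 11.51 ± 0.07 with 5SGlcNAc, 11.48 ± 0.09 with Thiamet-G and 11.51 ± 0.11 with DMSO. The 95% intervals of the difference from DMSO were -0.22 to 0.03 for JUNB and -0.16 to 0.16 for FOSL1 with 5SGlcNAc, and -0.13 to 0.12 and -0.18 to 0.13 with Thiamet-G. IER2 was within -0.12 to 0.06 for each inhibitor.

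**Figure D4:**
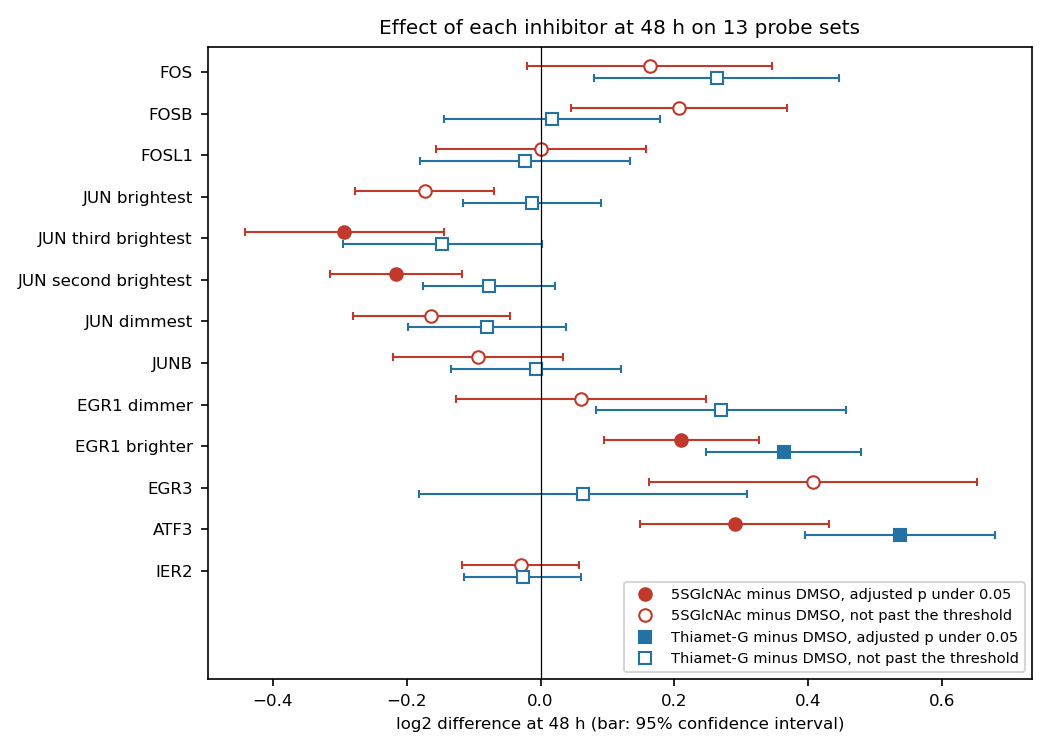
Log2 difference at 48 h (horizontal axis) with its 95% confidence interval from limma for the 13 probe sets, in the contrasts 5SGlcNAc minus DMSO and Thiamet-G minus DMSO. Filled points passed an adjusted p of 0.05: ATF3 and the brighter EGR1 probe set in both contrasts and 2 JUN probe sets with 5SGlcNAc.

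The Thiamet-G differences at 48 h had the opposite sign to the means over 2 to 24 h for FOS, ATF3 and both EGR1 probe sets, among others, so the change between the effects was tested. For ATF3 the single differences were 0.16, -1.51, -0.29, 0.10 and -0.02 at 2, 4, 6, 8 and 24 h, so its negative mean rests mainly on 4 h. Both arrays of that 4 h difference have high ACTB 3' minus 5' signal, and the part of that was not tested. The 48 h effect minus the 2 to 24 h effect of Thiamet-G was 0.85 ± 0.34 for ATF3 (adjusted p = 0.730), 0.81 ± 0.19 for the brighter EGR1 probe set (adjusted p = 0.400) and 0.78 ± 0.27 for FOS (adjusted p = 0.645). For 5SGlcNAc it was 0.41 ± 0.17 for EGR3 (adjusted p = 0.341) and -0.26 ± 0.09 for the second brightest JUN probe set (adjusted p = 0.202). None of the 13 passed for either inhibitor, with 4 at an unadjusted p under 0.05 for 5SGlcNAc and 5 for Thiamet-G. Of all 19064 probe sets, 2172 and 1170 had such a p. Over all probe sets 0.205% were called higher and 0.782% lower for 5SGlcNAc, and 0% and 0.0105% for Thiamet-G.

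**Figure D5:**
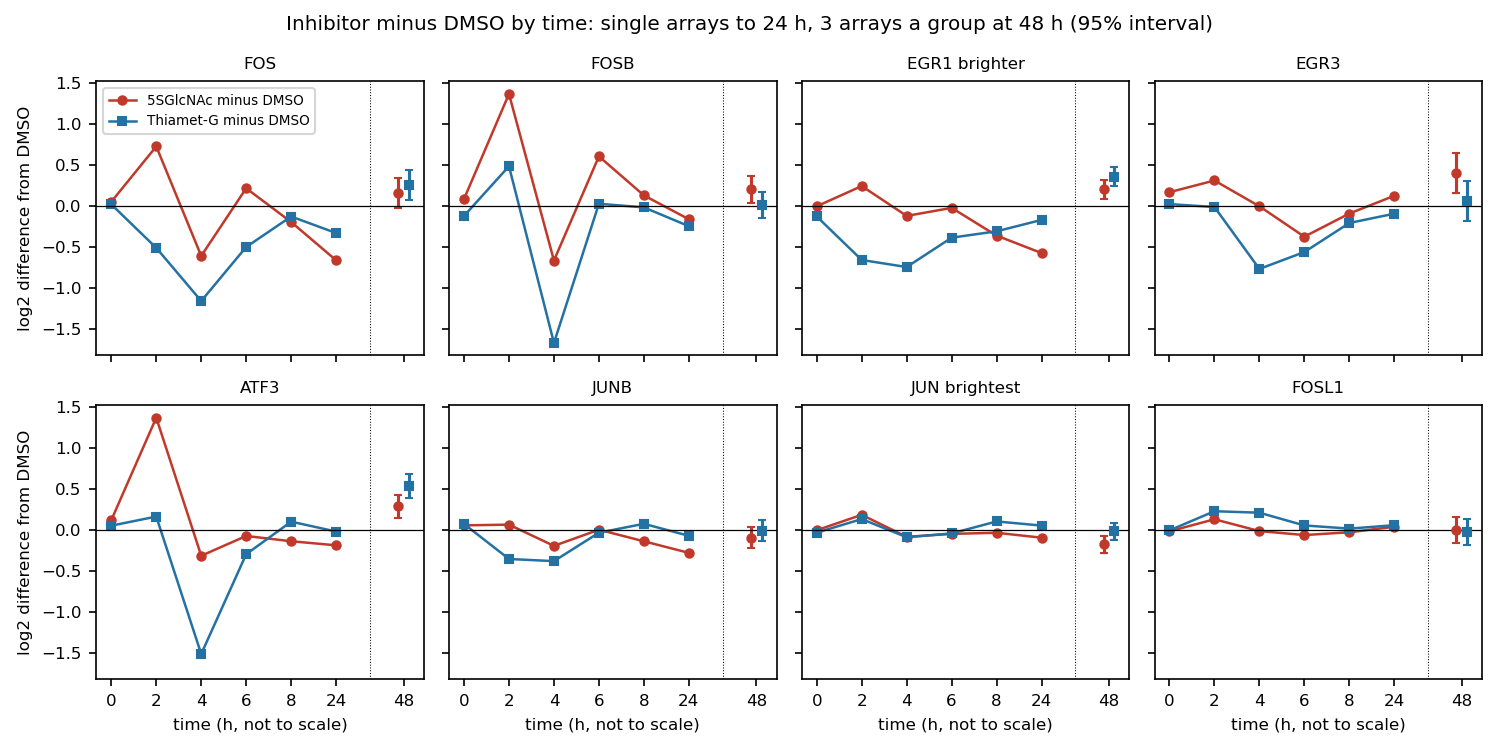
Log2 difference of each inhibitor from DMSO (vertical axis) at 0, 2, 4, 6, 8, 24 and 48 h (horizontal axis) for the brightest probe set of each of 8 genes. Points up to 24 h are single arrays with no error, and the 48 h points carry 95% confidence intervals. For FOSB and ATF3 the points lie farthest from 0 at 2 h with 5SGlcNAc and at 4 h with Thiamet-G, and at 48 h ATF3 and EGR1 lie above 0 for both inhibitors.

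Other genes of the immediate early response were counted by the brightest probe set of each, beside all 11963 genes. Among 18 measured transcription factors of this class, MYC (-0.64 ± 0.07) and KLF6 (-0.61 ± 0.08) fell at 2 h and none rose, with 0.209% of genes called higher and 0.267% lower. At 4 h MAFF rose (0.30 ± 0.07) and FOSL2, a further FOS family gene, fell (-0.45 ± 0.09). Among 19 inducible feedback genes, ZFP36 rose at 2 h (0.66 ± 0.09), while DUSP5, an ERK phosphatase, fell (-0.46 ± 0.09), as did the kinase PLK2 (-0.51 ± 0.10). At 4 h NAB2, a corepressor of EGR proteins, rose by 0.46 ± 0.09, as did SGK1 (0.31 ± 0.06) and MCL1 (0.23 ± 0.05), with 1.14% of genes called higher and 1.72% lower. NAB2 was still called at 6 h (0.38 ± 0.09).

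Of the 13 measured SRF and YAP1 targets, CCN2, which encodes a matricellular protein, was called higher at 4, 6, 8 and 24 h, by 0.40 ± 0.06 at 4 h and 0.20 ± 0.06 at 24 h. In the same list CNN2 fell at 8 h (-0.25 ± 0.07) and MYL9 at 24 h (-0.39 ± 0.06). Over all genes 1.94% were called higher and 1.80% lower at 6 h, and 3.22% and 2.10% at 8 h. Of the 18 AP-1 and EGR1 targets none was called at 2 h. At 4 h MMP13, a collagenase (0.45 ± 0.09), and the growth factor HBEGF (0.27 ± 0.07) rose and VEGFA fell (-0.43 ± 0.10), and at 6 h PLAUR, the urokinase receptor gene, rose (0.35 ± 0.08). Upstream kinases and factors had 1 call at 4 h, RPS6KA5, a kinase of CREB and histone H3 (0.37 ± 0.09), which was called at 6 h too (0.35 ± 0.09). The other bZIP genes had 1 at 4 h, ATF5 (0.28 ± 0.07).

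By 24 h, against 0 h, 4.20% of all genes were called higher and 4.53% lower. BHLHE40 (-0.71 ± 0.09), KLF4 (-0.50 ± 0.09) and HES1 (-0.40 ± 0.10) fell and KLF2 (0.43 ± 0.07) rose among the other immediate early factors. DUSP5 (0.53 ± 0.09) and ZFP36 (0.34 ± 0.09) rose among the feedback genes, and TNFAIP3, an inhibitor of NF-kappa-B signalling (-0.47 ± 0.09), and SGK1 (-0.28 ± 0.06) fell. ELK4 (0.31 ± 0.07), MAPK9 (0.25 ± 0.06) and MAP2K1 (0.21 ± 0.06) rose among 17 upstream genes. The AP-1 and EGR1 targets VEGFA (-0.50 ± 0.10) and CXCL8 (-0.58 ± 0.14) fell and none rose.

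At 48 h with 5SGlcNAc against DMSO, 5 of the 18 other immediate early factors fell and none rose, with 2.38% of all genes called higher and 6.43% lower and a list median of -0.04 against 0.01. They were NR4A2 (-0.42 ± 0.07), BHLHE40 (-0.34 ± 0.07), FOSL2 (-0.34 ± 0.06), HES1 (-0.31 ± 0.06) and IER3 (-0.23 ± 0.04). Of the AP-1 and EGR1 targets 4 of 18 fell, the cytokines IL6 (-0.60 ± 0.05) and CXCL8 (-0.61 ± 0.08), the protease gene PLAU (-0.55 ± 0.05) and VEGFA (-0.60 ± 0.07), and HBEGF rose (0.23 ± 0.06). Feedback genes split, with GADD45A (0.35 ± 0.05) and DUSP1 (0.22 ± 0.05) higher and NFKBIA (-0.24 ± 0.04) and NAB1 (-0.22 ± 0.05) lower. MAFG, a small MAF protein, was the 1 bZIP gene of 14 called (0.26 ± 0.04), and RPS6KA5 the 1 of 17 upstream genes (-0.26 ± 0.06). VCL (-0.26 ± 0.04) and MYL9 (-0.26 ± 0.06) fell and CCN2 (0.26 ± 0.06) rose among 13 SRF and YAP1 targets.

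With Thiamet-G against DMSO at 48 h, none of the 18 other immediate early factors, 17 upstream genes or 14 bZIP genes was called by limma, with 0.284% of all genes called higher and 2.23% lower. DUSP1, a MAP kinase phosphatase, rose by 0.31 ± 0.05 (adjusted p = 0.0178). Of the 18 AP-1 and EGR1 targets, IL6 (0.24 ± 0.05) and F3, the gene of tissue factor (0.24 ± 0.05), rose and none fell. Of the SRF and YAP1 targets TAGLN (-0.45 ± 0.07) and MYL9 (-0.36 ± 0.06), both smooth muscle contractile genes, fell. IL6 moved in opposite directions with the 2 inhibitors, and their direct comparison gave -0.84 ± 0.05 for 5SGlcNAc against Thiamet-G (adjusted p = 2.92e-05). In that comparison 7 of 18 other immediate early factors were lower, led by HES1 (-0.52 ± 0.06) and FOSL2 (-0.43 ± 0.06), and KLF2 was higher (0.23 ± 0.06), with 5.60% of all genes called higher and 5.99% lower. Of the AP-1 and EGR1 targets 5 of 18 were lower with 5SGlcNAc, VEGFA (-0.65 ± 0.07) and PLAU (-0.55 ± 0.05) among them, and HBEGF was higher (0.35 ± 0.06). Over 2 to 24 h no gene of these 6 lists was called in any of the 3 treatment contrasts.

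Cell type markers moved beside these lists. For 5SGlcNAc against Thiamet-G at 48 h, 5.60% of all genes were called higher and 5.99% lower. Of 12 luminal markers 4 fell, KRT19 (-0.46 ± 0.05), CLDN7 (-0.46 ± 0.07), CDH1 (-0.34 ± 0.08) and EPCAM (-0.28 ± 0.07). So did 3 of 10 markers of basal B breast cancer lines, PLAU, CAV1 (-0.25 ± 0.04) and FN1 (-0.23 ± 0.05), 1 of 8 haematopoietic markers, LYZ (-0.39 ± 0.08), and 1 of 8 fibroblast markers, LUM (-0.95 ± 0.13), and none rose. LYZ (4.86 to 5.45 over all arrays) and LUM (3.82 to 6.92) were dim. For 5SGlcNAc against DMSO, KRT19 (-0.42 ± 0.05), CLDN7 (-0.48 ± 0.07) and PLAU fell, with 2.38% of all genes called higher and 6.43% lower. For Thiamet-G against DMSO no marker was called, with 0.284% of all genes called higher and 2.23% lower. The log2 levels of the 12 luminal markers summed to 103.77 to 104.05 with 5SGlcNAc, 105.31 to 105.78 with Thiamet-G and 105.36 to 106.0 with DMSO. Those of the 10 basal B markers summed to 122.02 to 122.41 with 5SGlcNAc, 123.39 to 123.52 with Thiamet-G and 122.94 to 123.44 with DMSO. Against 0 h, 1, 3, 3, 6 and 4 of the 12 luminal markers were lower at 2, 4, 6, 8 and 24 h, CDH1 at each of these times, and CLDN4 was higher at 24 h (0.30 ± 0.06). Of all genes 0.267%, 1.72%, 1.80%, 2.10% and 4.53% were called lower at these times, and 4.20% higher at 24 h. At 24 h 2 of 10 basal B markers and 1 of 8 fibroblast markers were called lower as well. None of those 2 lists was called before 24 h. The part of these markers in the results above was not tested.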

How the data were processed

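The authors deposited log2 expression values, 1 per probe set and array, and the submitters' processing notes name RMA. RMA subtracts background, equalises array distributions and summarises probes, so a shift of most genes can be hidden. The values fall into 2 sets, the 48 h arrays (array medians 7.68 to 7.75) and those of 0 to 24 h (7.42 to 7.52), and every level was compared within 1 set. Of 22277 probe sets, 62 were controls, 1043 named several genes and 2108 none. The other 19064 entered limma 3.58.1 in R 4.3.3 (lmFit, eBayes, Benjamini-Hochberg over all probe sets, threshold 0.05, two-sided). The code was checked on data simulated from the same models. Such data cannot show whether series or times can stand in for replicates. At 48 h all 9 arrays shared the spread, time contrasts had treatment series as a block, and 2 to 24 h contrasts had time as a block. Arrays have no counts, so their number limits precision.

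All probe sets of the members were named. Of each gene list, the 3 smallest p and any count of 5 or fewer could be named, and for each member the 2 most correlated genes above the median. Members and lists were chosen with earlier results of these data known. Replicate numbers of 48 h were not used as pairs in the main fit. Deviations from the group mean correlated from -0.324 to 0.178 between same-numbered arrays and from -0.233 to 0.24 between others. With 3 arrays a group, these values cannot show whether same-numbered arrays shared a culture or batch.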

Additional observations from a re-analysis of the deposited data

How the results depend on the processing

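Every member called in a contrast kept its direction under all alternatives run. Of 2285 alternative values of members, 69 changed sign, all past the threshold in neither fit. Counts of called members depended on the setting. They are of 13 probe sets, of 9 with 1 probe set per gene and of 12 without those ending in _x_at, and without dim probe sets of 11 at 48 h and 12 at other times. For 5SGlcNAc against DMSO at 48 h the count of 4 became 6 without dim probe sets or with trend and robust variance, 1 with a replicate block and 2 with only the 6 arrays of the groups, and 0 to 6 leaving out arrays in turn. For Thiamet-G against DMSO the count of 2 became 1 with the replicate block and 0 with 6 arrays, and 1 to 2 leaving out arrays. For 5SGlcNAc against Thiamet-G the count of 1 became 4 without dim probe sets (under the 40th percentile), 2 with 1 probe set per gene, 4 with trend and robust variance, 0 with the replicate block, and 0 to 1 leaving out arrays. By the labels, the 48 h samples of different groups share only replicate numbers. ATF3 with Thiamet-G at 48 h remained called in 16 of 17 alternatives, at 0.46 to 0.59.

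Against 0 h, the 2 h count of 6 became 10 without dim probe sets, 3 with 1 probe set per gene and 0 to 3 leaving out a series. The 4 h count of 6 became 2 without the DMSO array of 4 h, 2 without that and the Thiamet-G array of 4 h (chosen after seeing the data), 2 with only the arrays of both times, and 0 to 5 leaving out a series. The 6 h count of 2 became 4 with only the arrays of both times and 0 to 2 leaving out a series. The 8 h count of 1 became 2 with median centring, without dim probe sets, or with trend and robust variance, 4 with only the arrays of both times, and 0 leaving out a series. The 24 h count of 0 became 1 with trend and robust variance. Fewer arrays enter a fit that leaves some out, and the cause of the other moves was not tested. Treatment contrasts over 2 to 24 h and differences between effects gave 0 members throughout.

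Over all probe sets, calls ranged from 691 to 2177 (1433 as reported) for 5SGlcNAc against DMSO at 48 h, from 25 to 1073 (401) for Thiamet-G against DMSO, and from 976 to 2834 (1902) between inhibitors. Against 0 h they ranged from 0 to 156 at 2 h (88), 0 to 788 at 4 h (517), 5 to 1122 at 6 h (638), 0 to 1512 at 8 h (886) and 229 to 2052 at 24 h (1495). Over 2 to 24 h they ranged from 0 to 18 for Thiamet-G against DMSO (0) and 0 to 189 between inhibitors (18). Differences between effects gave 77 to 395 for 5SGlcNAc (188) and 0 to 2 for Thiamet-G (2). The median SE at 48 h was 0.0657.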
